A study of Homo sapiens with 10 samples.

Results

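PTK6 constructs were compared with their partners without PTK6 over both forms of PSPC1, in 4 of the 10 RNA-Seq libraries of the series. All 4 came from SK-hep1, an established human liver cancer cell line, and all carried a PSPC1 construct. The libraries with PTK6 were PSPC1/PTK6 and PSPC1-Y523F/PTK6, and those without were PSPC1 and PSPC1-Y523F. They were chosen by their labels alone, and the mock control of the same cell line was left out of the comparison and is given beside it. The study set PTK6 against PSPC1 to ask how the kinase acts on PSPC1-driven tumor progression. Each condition had 1 library, so each arm held 2 libraries that differed in PSPC1 form and were not replicates. The sources used here do not say whether the sequenced cultures were pools or clones of transfected cells.

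PTK6 is a tyrosine kinase without a receptor part, related to the SRC family and found mainly in epithelial cells. PSPC1 is an RNA-binding protein of paraspeckles, nuclear bodies built on the long noncoding RNA NEAT1. In Y523F the tyrosine that PTK6 phosphorylates in PSPC1 is replaced by phenylalanine. Interferon-stimulated genes, to which many of the results below belong, are switched on when interferons bind their receptors and STAT and IRF factors reach the promoters of antiviral genes.

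The reads on genes numbered 20222367 and 23876651 in the wild-type pair without and with PTK6, and 21087578 and 24278662 in the Y523F pair in the same order, which is kept below. Read counts were fitted with edgeR's quasi-likelihood test with PSPC1 form as the second factor, and a gene was called at an adjusted p below 0.05. FPKM, which scale reads to gene length and library size, are given as deposited. Of 12 hepatocyte markers, 5 had no read in any of the 4 libraries (ALB, APOC3, TTR, TF and FGB), and so had the endothelial markers KDR, ERG and EMCN. The summed hepatocyte markers were 23.5 and 46 FPKM in the wild-type pair and 17.1 and 31.9 FPKM in the Y523F pair, mostly SERPINA1. The 12 endothelial markers summed to 154 to 256 FPKM, of which ENG made up 150 to 246, and the 7 fibroblast markers to 42.5 and 54.2 FPKM in the wild-type pair and 23.1 and 52.1 FPKM in the Y523F pair. The part of other cell types in the results was not tested. Of 8 epithelial markers 6 averaged 10 reads or more, and CDH1 did not. The keratins KRT8 and KRT18 of that list had at least 1330 FPKM in each library. CD3E was at 0 reads, and the summed level of 6 leukocyte markers lay between 6.07 and 6.72 FPKM without PTK6 and between 10.2 and 16.7 FPKM with it, of which CD14 made up nearly all.

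PTK6 itself (ENSG00000101213, GRCh38 chromosome 20, 63528001 to 63537370) was examined first. It had 307 reads or 5.69 FPKM in PSPC1 (95% Wilson interval 5.09 to 6.37) and 1060 reads or 16.7 FPKM in PSPC1/PTK6 (15.7 to 17.7). With the mutant it had 230 reads or 4.09 FPKM in PSPC1-Y523F (3.60 to 4.66) and 679 reads or 10.5 FPKM in PSPC1-Y523F/PTK6 (9.73 to 11.3). Both PTK6 libraries thus lay above both partners and above mock, at 4.79 FPKM. The fitted log2 change was 1.37 (SE 0.20), and at an adjusted p of 0.0673 in edgeR PTK6 was not called. With DESeq2 size factors in place of TMM the adjusted p was 0.0497, and with DESeq2 it was 0.0055.

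PSPC1 (ENSG00000121390, chromosome 13, 19674752 to 19783019) also differed between the arms. It had 7.01 and 26.4 FPKM in the wild-type pair and 2.28 and 70.9 FPKM in the Y523F pair. Its reads were 209, 930, 71 and 2539 in that order, and 0 in mock. PSPC1 was higher with PTK6 in both forms, by log2 values of 1.67 in wild type and 5.00 in Y523F, and was not called (edgeR, log2 change 3.30, SE 0.80, adjusted p = 0.201). On quantile-normalized FPKM limma called it (adjusted p = 0.0358). In every result below, the PTK6 construct and the level of PSPC1 RNA therefore cannot be told apart.

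**Figure D1:**
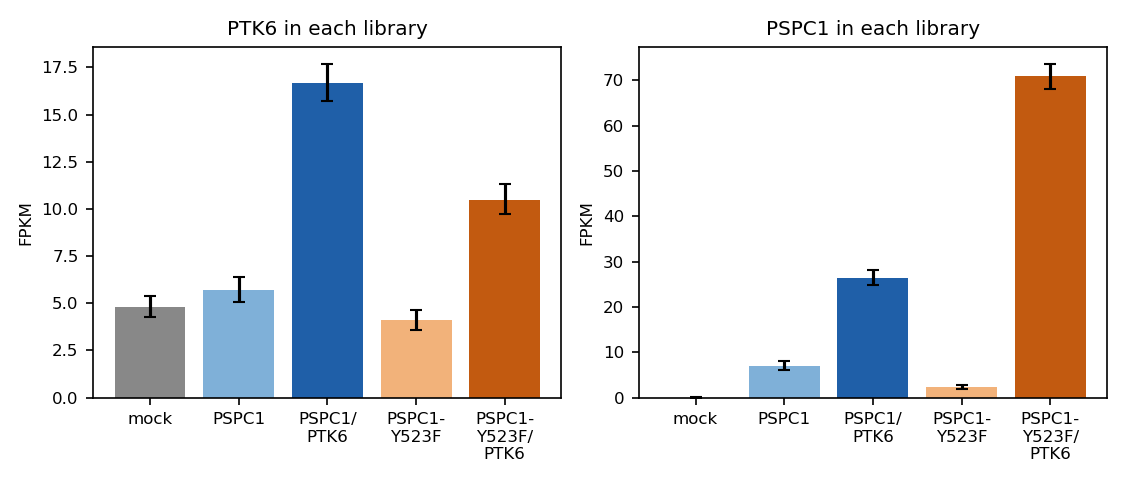
PTK6 (left) and PSPC1 (right) in FPKM, 1 bar per SK-hep1 library, with 95% Wilson intervals that cover counting error only. Both RNAs were higher in both PTK6 libraries than in their partners, PTK6 at 16.7 and 10.5 FPKM against 5.69 and 4.09, and PSPC1 at 26.4 and 70.9 FPKM against 7.01 and 2.28.

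Of 13876 genes that averaged 10 reads or more, 34 rose with PTK6 (0.245% of those tested) and 12 fell (0.0865%). Of the genes that rose, 31 were protein-coding and 3 were long noncoding RNAs, and all 12 that fell were protein-coding. Of the rises, 7 were on a list of interferon-stimulated genes and 2 on a list of NF-κB targets and cytokines, and the falls included a chain of collagen VI, a netrin and a calcium-binding protein (COL6A3, NTN1, CALB2). The fitted log2 changes of called genes were between 2.01 and 11.48 in size for rises and between 1.87 and 9.34 for falls, and adjusted p lay between 0.005275 and 0.04428. In all 46 called genes both PTK6 libraries lay on the same side of both partners in FPKM, as did 19% of all tested genes upward and 11.6% downward. Called genes outside the rule for named genes are named below because they were called.

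The fit had 1 residual degree of freedom, which held the disagreement between the PSPC1 forms, and an adjusted p assumes that PTK6 acts alike in both. For PSPC1 form, 0 genes were called by edgeR, with 2196 genes at an unadjusted p under 0.05, and DESeq2 called 257. For PTK6, 1664 genes were at an unadjusted p under 0.05. Without the term for form, 3 genes rose (BACE2, IFI16 and KRTAP4-8) and 1 fell (ADARB2). A fit that leaves out 1 library has no degree of freedom left for form, so it dropped that term and had an arm of 1 library, assumed to vary like the other arm. Its counts are read against the 3 and 1 of all 4 libraries without the term, and a lost call cannot be credited to the library alone. In these fits the rises numbered 55 without PSPC1, 89 without PSPC1/PTK6, 13 without PSPC1-Y523F and 241 without PSPC1-Y523F/PTK6, and of the 34 genes 30, 21, 10 and 33 kept their call. The falls numbered 12, 35, 14 and 68, and 9, 11, 11 and 11 of the 12 kept theirs.

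**Figure D2:**
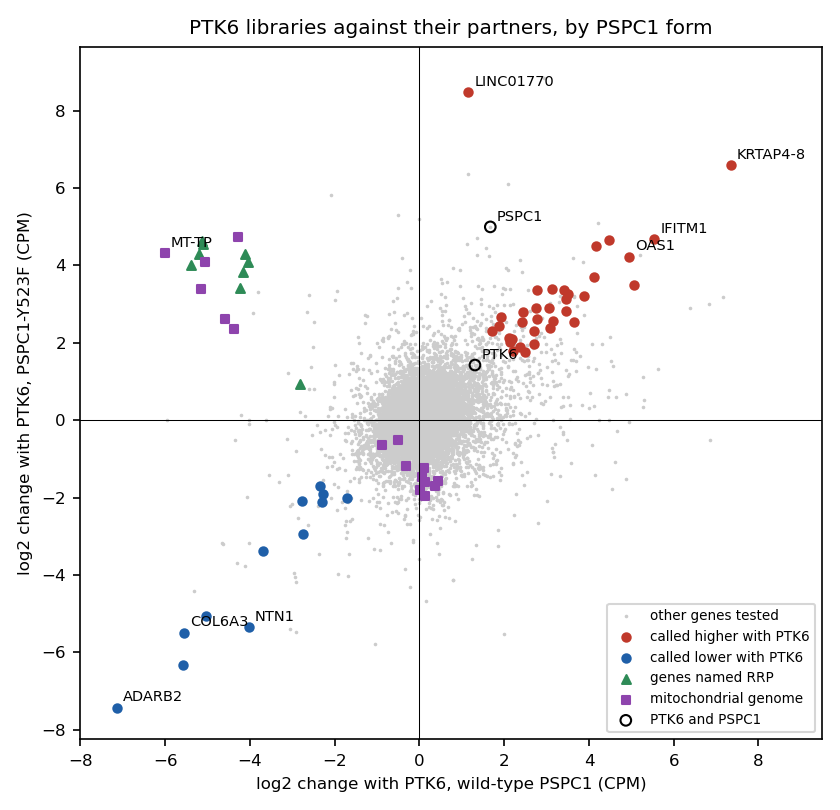
Log2 change in CPM with PTK6 in the wild-type form (horizontal) and in Y523F (vertical), 1 point per tested gene. The 34 genes called higher sit in the upper right and the 12 called lower in the lower left, while genes named RRP and some genes of the mitochondrial genome sit in the upper left, lower with PTK6 in wild type and higher in Y523F.

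Interferon-stimulated genes were the list with the most rises. Of 40 genes on the list, 38 were tested, 7 rose (IFITM1, OAS1, IFI6, SAMD9L, IRF7, TRIM22 and SAMD9) and 0 fell. Their median log2 change was 1.73, against 0.00 for all genes, and 36 of the 38 were higher in both forms, against 29.6% of all genes. At least 2-fold higher in both forms by quantile-normalized FPKM were 15 of them, against 1.04% of the 12073 genes that averaged 1 FPKM or more. The median was 2.47 in wild type and 1.22 in Y523F, and 31 of the 38 changed more in wild type. This difference between the forms was not tested, since each condition had 1 library. The 7 calls became 25 with DESeq2, 17 with limma and 0 without the term for form, where the median was 2.14. With the term dropped and 1 library left out, the median lay between 0.93 without PSPC1/PTK6 and 2.77 without PSPC1-Y523F/PTK6. The rises then numbered between 5 without PSPC1-Y523F and 30 without PSPC1-Y523F/PTK6, and without PSPC1/PTK6 1 gene was called lower. The list was chosen with earlier results of these data known.

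The promoters of these genes can be searched for the interferon-stimulated response element, the site at which STAT and IRF factors bind. The letters GAAA, any 2 bases and GAAA again were searched on both strands in RefSeq promoter sequences (GRCh38.p14, 250 bases before to 50 after the start), counting a gene once and allowing matches to overlap. Of the 38 tested interferon genes 29 had a promoter sequence, and 21 of these (72.4%) held the motif, against 1195 of 27305 promoters (4.38%). The list is made of known interferon-stimulated genes, so this share describes the list and does not depend on the change with PTK6. Among the called genes of the list it was 3 of 5, among those not called 18 of 24, among 18 other called rises 2, and among 7 called falls 0. The stretches below come from genes that rose with PTK6 and are known to respond to interferon. ISG15 and IFIT1 are exceptions, as interferon-stimulated genes of the list that were not called. KRTAP4-8, which also rose, held a match that is not shown. In each stretch 1 match is in capitals, and IFI6, ISG15 and IFIT1 hold further matches that are wholly or partly in lower case.
IFITM1 (chr11:313975-314034, plus strand): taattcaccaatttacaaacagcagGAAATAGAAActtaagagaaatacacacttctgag
IFI6 (chr1:27672273-27672332, minus strand): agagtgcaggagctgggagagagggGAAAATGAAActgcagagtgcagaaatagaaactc
SAMD9 (chr7:93118081-93118140, minus strand): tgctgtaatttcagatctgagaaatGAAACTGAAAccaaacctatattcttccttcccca
DDX60L (chr4:168480508-168480567, minus strand): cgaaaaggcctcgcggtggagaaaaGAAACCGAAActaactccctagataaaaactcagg
ISG15 (chr1:1013365-1013424, plus strand): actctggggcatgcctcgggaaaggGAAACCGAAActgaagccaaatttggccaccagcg
IFIT1 (chr10:89392482-89392541, plus strand): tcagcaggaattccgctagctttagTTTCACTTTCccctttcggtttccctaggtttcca
In IFIT1 the capitals show the motif as it reads from the other strand. A match is a description of the letters and not a measured site.

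Among antiviral effectors, IFITM1 (chromosome 11, 313506 to 315272), which blocks virus entry at membranes, had 1.18 and 72.3 FPKM in the wild-type pair and 0.303 and 10.6 FPKM in the Y523F pair, with 1.62 FPKM in mock. Mock lay above both partners and below both PTK6 libraries (edgeR, log2 change 5.52, SE 0.34, adjusted p = 0.0118). OAS1, an oligoadenylate synthetase that activates RNA decay on sensing double-stranded RNA, had 0.996 and 38.9 FPKM in the wild-type pair and 0.664 and 13.1 FPKM in the Y523F pair (log2 change 4.73, SE 0.31, edgeR adjusted p = 0.0127). Mock had 8.77 FPKM of OAS1 and lay between the arms. IFI6, an interferon-induced membrane protein, went from 53.9 to 717 FPKM in wild type and from 27.4 to 249 FPKM in Y523F, with mock between them at 165 FPKM (log2 change 3.38, SE 0.26, edgeR adjusted p = 0.0201). SAMD9L and SAMD9, neighbours on chromosome 7 that restrict poxviruses, had 0.359 and 0.786 FPKM in PSPC1 and 8.22 and 8.36 FPKM in PSPC1/PTK6. With Y523F they went from 0.127 and 0.680 FPKM to 3.42 and 3.88 FPKM. TRIM22, an antiviral ubiquitin ligase, had 0.769 and 17.0 FPKM with wild type and 0.532 and 7.40 FPKM with Y523F, and 0.996 FPKM in mock. In all of these genes the PTK6 library with wild-type PSPC1 was the highest of the 5.

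Of transcription factors in the response, IRF7, which drives interferon genes, rose from 10.2 to 65.4 FPKM in wild type and from 6.55 to 43.3 FPKM in Y523F (edgeR, log2 change 2.62, SE 0.22, adjusted p = 0.0201). STAT2 was not called and had a log2 change of 0.72, and IRF9, its partner, had 0.16 at no more than 1.85 FPKM. Other members that were not called, given after their values were seen, were far higher in PSPC1/PTK6 than in any other library. IFI27 had 254 FPKM there and 11.2 FPKM in PSPC1-Y523F/PTK6, against 1.78 and 1.36 FPKM in the partners. ISG15, a ubiquitin-like modifier, had 1312 FPKM there and 238 FPKM in PSPC1-Y523F/PTK6, against 140 and 73.5 FPKM in the partners. BST2, which tethers virus particles to the cell, went the opposite way by form, from 109 to 207 FPKM in wild type and from 59.4 to 14.9 FPKM in Y523F.

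The mock library, which took no part in the test, had more than both partners without PTK6 for 31 of the 38 genes, against 38% of all tested genes, and for 20 of them it lay between the arms, against 4.61%. Mock can lie there only where the arms do not overlap, as upward in 33 of the 38 and in 19% of all genes. The contrast in this share thus partly repeats the difference between the arms. Among all 34 called rises, mock lay between the arms for 23, below all 4 libraries for APOE, PTGES and KCNK6, and above all 4 for PXDN. PXDN, peroxidasin, a peroxidase that links collagen IV, had 148 FPKM in mock, 5.42 and 6.48 FPKM without PTK6, and 80.9 and 35.7 FPKM with it.

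Interferon ligands, receptors and nucleic acid sensors were looked at after the interferon genes had been seen. Of 13 ligands and receptors 9 were tested and 0 were called, with 1 at an unadjusted p under 0.05. IFNB1 had 0.748 and 2.05 FPKM in the wild-type pair and 0.386 and 0.0479 FPKM in the Y523F pair, and IFNL1 had 1.10 and 4.15 FPKM against 0.996 and 0.288 FPKM. The reads of both ligands were thus higher with PTK6 in wild type and lower in Y523F. The receptor chains IFNAR1 and IFNAR2 had log2 changes of 0.10 and 0.29. Of 10 sensors and adaptors 0 were called, with 5 at an unadjusted p under 0.05. Their log2 changes ran from −0.35 to 4.53 with a median of 0.54, and CGAS had −0.08 and STING1 0.50.

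Other called rises included genes known to respond to interferon that were not on the list, IFI16, a DNA sensor, with SLFN5 and DDX60L. IFI16 had 2.21 and 28.9 FPKM in the wild-type pair and 2.57 and 17.4 FPKM in the Y523F pair (edgeR, log2 change 3.15, SE 0.26, adjusted p = 0.0201), and it stayed called in each alternative tried. SLFN5 and DDX60L had log2 changes of 2.15 and 2.11. These 3 genes and the others in this paragraph are named because they were called.

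Of 17 tested genes of MHC class I antigen presentation edgeR called 0, with 10 at an unadjusted p under 0.05, whereas DESeq2 called 6 higher and limma 4. In both forms 13 were higher and 1 was lower, against 29.6% and 29% of all genes, and the median log2 change was 0.90. B2M, the light chain of class I, had 560 and 1857 FPKM in the wild-type pair and 481 and 616 FPKM in the Y523F pair (log2 change 0.96). HLA-E had a log2 change of 0.62 and CALR, a chaperone of the endoplasmic reticulum, of −0.32. Reads of the HLA genes may be shared among near-identical copies, so their values are uncertain.

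Of 20 tested NF-κB targets and cytokines 2 rose, IL1A and IL6, and 0 fell in edgeR, and the median log2 change was 0.77. DESeq2 called 6 higher and 1 lower, and limma 4 higher and 1 lower. IL1A, an alarm cytokine, had 1.40 and 18.6 FPKM in the wild-type pair and 0.268 and 2.52 FPKM in the Y523F pair (edgeR, log2 change 3.42, SE 0.29, adjusted p = 0.0201). IL6, which signals through STAT3, had 18.1 and 98.8 FPKM against 8.39 and 27.7 FPKM (log2 change 2.01, SE 0.22, edgeR adjusted p = 0.0329). In both genes PSPC1/PTK6 was the highest of the 5 libraries and PSPC1-Y523F the lowest. IL34, a ligand of the CSF1 receptor outside the list, rose as well, with 6.03 and 49.2 FPKM against 0.833 and 8.92 FPKM. The chemokine CCL2, named after its values were seen, had 10.8 and 1.64 FPKM in the wild-type pair and 5.91 and 0.904 FPKM in the Y523F pair, and was not called (edgeR, log2 change −2.79, adjusted p = 0.0596). Without the term for form 0 of the list were called. With the term dropped and 1 library left out, the median lay between 0.17 without PSPC1/PTK6 and 1.85 without PSPC1.

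Of the rises outside these groups, KRTAP4-8, a keratin-associated protein of hair, had 0 reads in PSPC1, PSPC1-Y523F and mock, and 396 and 189 reads in PSPC1/PTK6 and PSPC1-Y523F/PTK6. With 3 reads over both partners as the floor it was at least 157-fold higher with PTK6, and its reads may be shared with other genes of its family. EdgeR and limma called KRTAP4-8, whereas DESeq2 did not (DESeq2 adjusted p = 0.247). NAV2-AS6, antisense to the neuron navigator gene NAV2, had 8 and 300 reads in the wild-type pair and 1 and 76 reads in the Y523F pair. NAV2 rose too, with a log2 change of 2.34, and without strand the reads of both cannot be told apart. SCG5, a chaperone of secretory granules, had 4 and 266 reads in the wild-type pair and 6 and 94 reads in the Y523F pair. C1QTNF1, a secreted protein, had 8 and 142 reads in the wild-type pair, and 18 and 220 reads in the Y523F pair. LINC02154 had 17 and 380 reads with wild type and 10 and 117 with Y523F, against 205 in mock. The long noncoding RNA LINC01770 was called on 705 reads in PSPC1-Y523F/PTK6 alone, with 3 reads in PSPC1/PTK6 and 0 in the others, and could not be tested without that library.

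Among membrane and matrix proteins, ITGB3, an integrin subunit that pairs with ITGAV, had 1.98 and 12.7 FPKM in the wild-type pair and 1.69 and 9.52 FPKM in the Y523F pair (edgeR, log2 change 2.51, SE 0.25, adjusted p = 0.0268). It was the only one of 15 tested integrin subunits that was called, and their median was 0.38. CLDN1, a tight junction protein, had 3.06 and 15.8 FPKM against 1.41 and 6.0 FPKM, and was called among 19 tested epithelial genes. The median of the epithelial genes was 0.09, made of −0.40 in wild type and 0.57 in Y523F. Of the 17 tested collagen chains COL6A1 rose and COL6A3 fell, although both are chains of collagen VI. COL6A1 had 9.55 and 63.7 FPKM in the wild-type pair and 6.03 and 19.5 FPKM in the Y523F pair. COL6A2, named after its values were seen, had a log2 change of 1.19 and was not called.

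The falls were led by COL6A3 (ENSG00000163359, chromosome 2, 237324003 to 237414375). It had 14.5 FPKM in PSPC1 and 0.345 FPKM in PSPC1/PTK6, and 48.5 FPKM in PSPC1-Y523F and 1.01 FPKM in PSPC1-Y523F/PTK6, with 4.73 FPKM in mock. This was the smallest adjusted p of the fit (edgeR, log2 change −5.56, SE 0.25, adjusted p = 0.00528), with changes of −5.55 in wild type and −5.49 in Y523F. Without the term for form its adjusted p was 0.111.

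ADARB2, a member of the RNA-editing ADAR family expressed mainly in brain, had 348 reads in PSPC1 and 309 in PSPC1-Y523F, and 1 and 0 reads with PTK6, against 127 in mock. The ratio of the arms was 814 (95% interval from counting 146 to 32200). PTPRD, a receptor tyrosine phosphatase, had 80 and 58 reads without PTK6, 1 and 0 with it, and 0 in mock, a ratio of 171 (30.2 to 6800). ARFGEF3 had 222 and 143 reads without PTK6, 4 and 0 with it, and 193 in mock. ARFGEF3 and PTPRD had a mean under 1 FPKM and are named because they were called. For all 3 genes the PTK6 libraries held almost no reads, whereas mock resembled the partners for ARFGEF3 and the PTK6 libraries for PTPRD.

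The other falls differed in function. NTN1, the guidance cue netrin, had 4.79 and 0.315 FPKM in the wild-type pair and 4.23 and 0.0743 FPKM in the Y523F pair (edgeR, log2 change −4.77, SE 0.46, adjusted p = 0.0249). NRP2, a co-receptor for semaphorins and VEGF, had 33.8 and 7.97 FPKM against 38.7 and 8.51 FPKM, nearly the same in both forms (log2 change −2.21, SE 0.21, edgeR adjusted p = 0.0249). TNC, tenascin C, a matrix glycoprotein, had 12.9 and 3.13 FPKM against 12.3 and 3.13 FPKM. It was the only one of 25 tested mesenchymal genes that edgeR called. DESeq2 called 2 of the list higher and 1 lower, and limma 1 lower. PTK2B, a kinase related to focal adhesion kinase, had 26.7 and 4.57 FPKM in the wild-type pair and 12 and 2.62 FPKM in the Y523F pair, with 1.51 FPKM in mock.

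CALB2, the calcium-binding protein calretinin, had 24.8 and 2.17 FPKM in the wild-type pair and 16.8 and 1.44 FPKM in the Y523F pair (edgeR, log2 change −3.61, SE 0.29, adjusted p = 0.0201). CSDC2, an RNA-binding protein with a cold shock domain, had 11 and 1.87 FPKM against 3.55 and 0.400 FPKM. For CALB2 and PTK2B mock was below all 4 libraries. STC1, a secreted glycoprotein, had 10.2 and 3.63 FPKM against 22.3 and 5.24 FPKM. PHGDH, the first enzyme of serine synthesis and a target of ATF4, had 72.9 and 16.7 FPKM in the wild-type pair and 39.5 and 11.4 FPKM in the Y523F pair, with 87.4 FPKM in mock (edgeR, log2 change −2.04, SE 0.25, adjusted p = 0.0435). It was the only one of 25 tested genes of the ATF4 and unfolded protein responses that edgeR called, and their median was −0.16. DESeq2 called 2 of them lower.

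**Figure D3:**
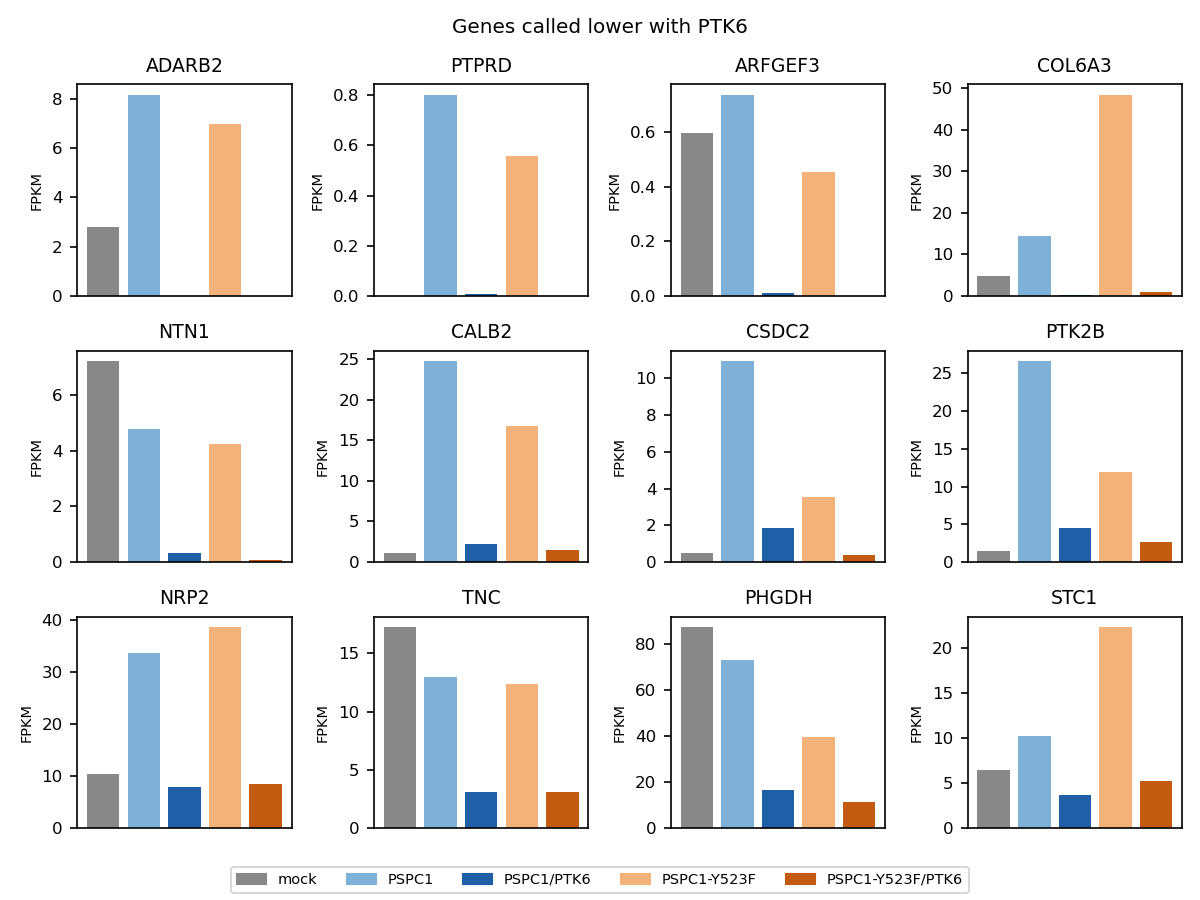
The 12 genes called lower with PTK6, in FPKM, 1 bar per SK-hep1 library, with mock first and each PSPC1 form followed by its PTK6 partner. In each panel both PTK6 bars are lower than both partners, as in COL6A3 at 0.345 and 1.01 FPKM against 14.5 and 48.5, while mock is at 0 in PTPRD and above all 4 in NTN1, TNC and PHGDH.

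Within each PSPC1 form, fold changes were counted on quantile-normalized FPKM + 1, with no test. With wild type, 362 of 12073 genes (3.0%) had at least doubled with PTK6 and 220 (1.82%) were lower by the same factor of 2. With Y523F 439 genes (3.64%) were higher and 243 (2.01%) lower by that factor. Both forms shared 126 higher genes (1.04% of genes), which were 34.8% of those in wild type and 28.7% of those in Y523F. They shared 45 lower genes (0.373%), 20.5% and 18.5% of the lists. A further 47 genes (0.389%) changed at least 2-fold in opposite directions. Of the called genes, 33 of 34 rises and 10 of 12 falls were among the shared ones. The falls ARFGEF3 and PTPRD averaged under 1 FPKM and were not among the 12073 genes counted. The calls and these counts come from the same libraries, so the overlap is not a separate check.

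The gene lists drawn from the biology of PTK6 and PSPC1 held no gene called by edgeR. Of 9 tested kinases of the PTK6 family and their regulators 0 were called, with 3 at an unadjusted p under 0.05, among them PTK6. HSP90AA1, STUB1 and SOCS3 had log2 changes of 0.05, −0.10 and 0.11. The 19 tested substrates and partners of PTK6 had a median of 0.00 with 0 at an unadjusted p under 0.05, and BCAR1 and STAT3 had log2 changes of −0.13 and 0.04. The 18 tested paraspeckle genes had a median of −0.18. The PSPC1 partners NONO and SFPQ had log2 changes of −0.17 and 0.00, and HNRNPK of 0.01. NEAT1, named after its values were seen, had 10.2 and 30.7 FPKM in the wild-type pair and 13.2 and 3.25 FPKM in the Y523F pair, and thus changed in opposite directions.

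At the RNA level, none of the genes on the marker list was called by edgeR, DESeq2 or limma. The study followed most of these markers mainly as protein. In mouse tumors it reported that PTK6 reversed effects of wild-type PSPC1 on vimentin, β-catenin, c-Myc and others, but not those of Y523F. The paper's text makes no such report for FN1, MET, SMAD2 or SMAD3. From RNA-Seq of these transfectants it also reported tumor progression gene sets as lower in PSPC1/PTK6. The same sets were reported as higher in PSPC1, PSPC1-Y523F and PSPC1-Y523F/PTK6. A PTK6 term pooled over both forms averages such opposite changes, so these calls cannot test either report. Of 19 genes on the marker list 11 were tested and 0 were called, with 1 at an unadjusted p under 0.05, and the median log2 change was 0.06. With PTK6, 3 were higher in both forms and 1 was lower in both. Another 4 were higher in wild type and lower in Y523F, and 3 the reverse. CTNNB1, which encodes β-catenin, had 153 and 167 FPKM in the wild-type pair and 140 and 158 FPKM in the Y523F pair (edgeR, log2 change 0.07, SE 0.25). VIM, SMAD2, SMAD3, MYC and MET had log2 changes of 0.17, 0.04, 0.03, 0.12 and 0.00. JUP, plakoglobin, had 0.58, TWIST1 −0.36, SNAI2 0.23 and TGFB1 −0.22, the last made of −0.76 in wild type and 0.31 in Y523F. FN1, fibronectin, had 18.2 and 11.2 FPKM in the wild-type pair and 21.1 and 41.8 FPKM in the Y523F pair. The genes that were not tested included CDH1, CDH2, SNAI1 and WNT3A, each at no more than 0.1 FPKM in each of the 4 libraries, so a change in them was not detectable at this depth.

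Of 7 tested EMT transcription factors edgeR called 0, and the median was 0.44, with 0.44 for TWIST2. The 12 tested stemness genes had a median of 0.22, and ANPEP, KRT19 and CD44 had log2 changes of −0.06, 0.09 and 0.66. In 20 tested Wnt/β-catenin genes the median was 0.07, with −0.20 for CCND1 and 0.56 for DKK3. The 23 tested genes of the TGF-β pathway had a median of −0.01 and −0.22 for CCN1. Receptor kinases and their ligands had a median of 0.00 over 17 genes, and IGFBP6, which binds insulin-like growth factors, had 103 and 598 FPKM in the wild-type pair and 104 and 215 FPKM in the Y523F pair (log2 change 1.72, edgeR adjusted p = 0.149). EdgeR called no gene in these 5 lists, with 2, 5, 6, 2 and 1 genes at an unadjusted p under 0.05 in the order given. DESeq2 and limma called IGFBP6 higher. Both also called 1 stemness gene higher and, of the Wnt/β-catenin genes, 1 higher and 1 lower.

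Several growth and metabolic lists had negative medians or split by form, whereas p53 and NRF2 targets had positive medians in both forms. EdgeR called no gene of these lists. DESeq2 called 1 lower in the G1/S list, 1 higher in hypoxia and glycolysis and 2 higher among NRF2 targets. Limma called 1 NRF2 target higher, as did edgeR with DESeq2 size factors in place of TMM. Of 27 tested genes of DNA replication and the G1/S transition 17 were lower with PTK6 in both forms and 1 higher, against 29% and 29.6% of all genes, with a median of −0.29. CCND3, a cyclin D, had 511 and 200 FPKM in the wild-type pair and 535 and 278 FPKM in the Y523F pair (edgeR, log2 change −1.23, SE 0.33, adjusted p = 0.230), and DESeq2 called it lower. MCM7, a subunit of the replication helicase, had −0.59. With form dropped and 1 library left out, the G1/S median lay between 0.03 without PSPC1-Y523F and −0.84 without PSPC1-Y523F/PTK6. Of 30 genes of G2/M and mitosis 16 were lower in both forms and 5 higher, with a median of −0.16 and −0.59 for CDC20, −0.47 for UBE2C and −0.40 for CCNB1. Of 40 genes of the MYC list 16 were lower in both forms and 5 higher, at a median of −0.14, with −0.06 for ENO1, 0.25 for LDHA and 0.07 for NPM1.

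No gene of cholesterol synthesis was called by edgeR, with 2 at an unadjusted p under 0.05, and the difference between the forms was not tested. Of 24 tested genes 18 were lower with PTK6 in wild type and higher in Y523F, against 2833 of 13876 genes, with medians of −0.55 and 0.67. FDFT1, squalene synthase, had 241 and 153 FPKM in the wild-type pair and 98.0 and 184 FPKM in the Y523F pair, and DHCR7, the last enzyme of the pathway, had 178 and 129 FPKM against 102 and 206 FPKM. Hypoxia and glycolysis genes had medians of −0.33 and 0.16 in the 2 forms over 28 genes, with −0.24 for PKM and −0.23 for GAPDH. The 20 tested p53 targets had a median of 0.17, with 0.36 for CDKN1A, 0.73 for GDF15 and 0.03 for BAX. The 21 tested NRF2 targets had a median of 0.22, with 0.22 for FTL, 0.37 for TKT and 0.09 for NQO1.

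Of the 15 tested mRNAs and rRNAs of the mitochondrial genome 0 were called, with 0 at an unadjusted p under 0.05, and the median log2 change was −0.73. MT-CO1, MT-CO2 and MT-CO3 had 0.14, 0.10 and −0.31 in wild type and −1.96, −1.24 and −1.17 in Y523F. The mitochondrial genome took 1.194% and 1.004% of reads in the wild-type pair, and 1.742% and 0.759% in the Y523F pair. These shares include the mitochondrial rRNAs, whose reads may have been removed from some libraries before counting. MT-RNR2 had 49924 and 2077 reads in the wild-type pair, and 1177 and 22061 in the Y523F pair. A fall in the wild-type pair can therefore not be read from the shares. Metallothioneins had 2 tested genes, MT2A at 0.23 and MT1E at −0.04. Of 18 cancer-testis antigens 5 were tested and edgeR called 0, with 2 at an unadjusted p under 0.05, and DESeq2 called 1 lower. MAGEA6 had 31 and 115 reads in the wild-type pair and 35 and 1052 reads in the Y523F pair, MAGEA3 had a log2 change of 0.12 and PRAME of 0.27, and the near-identical MAGE genes may share reads.

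**Figure D4:**
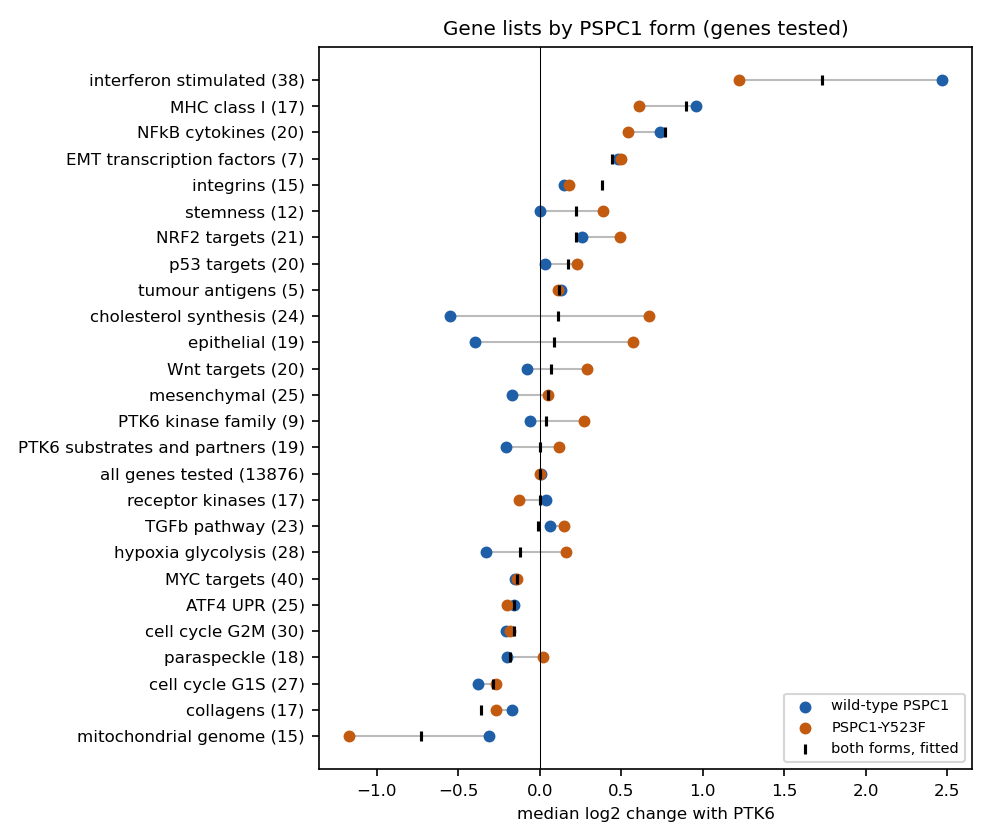
Median log2 change with PTK6 of each gene list, in wild-type PSPC1 (blue), in Y523F (orange) and fitted over both (black tick), with the number of tested genes in parentheses. Interferon-stimulated genes stand at 2.47 and 1.22, all tested genes at about 0, and cholesterol synthesis at −0.55 and 0.67.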

How the data were processed

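Total RNA of SK-hep1 transfectants was sequenced as paired reads. The paper's methods name rRNA depletion and the labels poly-A selection, and the kit keeps no strand. The submitters' processing notes name TopHat2 2.0, HTSeq 0.6.1, edgeR and GRCh38.p12, whereas the paper names another build. Per the deposited files, the authors gave raw counts and, beside them, FPKM, for 58302 gene identifiers after 8 lines without values were dropped. Symbols were matched for 58039 genes, and 97.5% of positions equal those of GENCODE 29.

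Genes with a mean of at least 10 reads over the 4 libraries were fitted with edgeR 4.0.16 in R 4.3.3 (TMM, quasi-likelihood test, PSPC1 form and PTK6 as additive terms) with Benjamini-Hochberg adjustment, and SE is the log2 change divided by the root of the F statistic. Changes within a form were log2 CPM with a prior count of 2. Counts of 2-fold changes used FPKM quantile normalized over 8 libraries, with 1 added and a mean of at least 1 FPKM, in 1 library per condition. Wilson intervals and floors of 3 reads cover counting error only. The edgeR p-values rest on the disagreement between the PSPC1 forms and on 5.25 prior degrees of freedom drawn from all genes. They do not measure the spread between cultures of a condition. The alternatives were DESeq2 size factors, DESeq2 1.42.0, other filters, limma 3.58.1 on FPKM, no form term, no mitochondrial genome, each library left out together with the form term, and other pseudocounts. The scripts were tested on simulated data.

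The genes named are PTK6, PSPC1, the 10 rises and 10 falls with the largest smaller change of the 2 forms among called genes of at least 1 FPKM, up to 4 called members of each list or its 3 members of highest FPKM, the markers of the study, and 5 genes for each opposite pattern. Members and lists were chosen with earlier results of these data known. Promoters came from RefSeq. The Mahlavu libraries entered only the quantile normalization, and the Huh-7 libraries were not used. Some results are not reported here.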

Additional observations from a re-analysis of the deposited data

Results flagged for a closer look

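Some genes moved in opposite directions with PTK6 in the 2 PSPC1 forms. Each condition had 1 library, so these differences were not tested, and their cause was not tested. The genes lower with PTK6 in wild type and higher in Y523F were led by genes with RRP symbols and by genes of the mitochondrial genome. Whether reads of such genes had been removed from some libraries before counting was not tested, so these values may not be RNA levels. RRP9 had 1701 and 65 reads in the wild-type pair without and with PTK6, 109 and 2982 reads in the Y523F pair, and 87 reads in mock. Its log2 change in Y523F minus that in wild type was 9.75, and this difference was 9.66 for RRP12, 9.51 for RRP7A, 10.32 for the mitochondrial tRNA MT-TP and 9.01 for the mitochondrial rRNA MT-RNR1. PSPC1 and PSPC1-Y523F/PTK6 were thus high, and the other 3 SK-hep1 libraries low. All 9 tested genes whose symbol is RRP and a number followed this pattern, as counted after the values were seen, with log2 changes from −5.39 to −2.81 in wild type and from 0.95 to 4.62 in Y523F. They include the pseudogene RRP7BP, at −2.81 and 0.95. Of the rRNA methyltransferase genes, MRM2 moved the same way, at −2.55 and 1.38. MRM1 and MRM3 did not, with 0.63 and 0.06, and 0.16 and 0.09. Of 20 genes that were at least 4-fold lower in wild type and at least 4-fold higher in Y523F, 8 were RRP genes and 6 lay in the mitochondrial genome, and 4 genes showed the reverse at that size.

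Genes higher with PTK6 in wild type and lower in Y523F rested on fewer reads. PSG2, a pregnancy-specific glycoprotein, had 15 and 159 reads in the wild-type pair and 21 and 2 reads in the Y523F pair, a difference of −5.44 on the log2 scale. The chemokine CCL17 had a difference of −4.68 and the Notch ligand JAG1 of −5.10. AL713998.1 had a difference of −7.54, with 82 and 0 reads in the Y523F pair. SIGLEC6 had 128 and 646 reads in the wild-type pair and 141 and 20 reads in the Y523F pair, a difference of −4.68.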

How the results depend on the processing

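Against 34 rises and 12 falls, DESeq2 size factors gave 69 and 20, DESeq2 198 and 77, no filter on low counts 566 and 200, a mean of at least 1 FPKM 115 and 27, limma on quantile-normalized FPKM 120 and 42, and no form term 3 and 1. Without the mitochondrial genome 55 genes rose and 16 fell. Leaving out 1 library together with the form term, which leaves an arm of 1 library, gave 13 to 241 rises and 12 to 68 falls, to be read against the 3 and 1. Form called 257 genes with DESeq2, 933 without the filter, 2 with a mean of at least 1 FPKM, 3 with limma, and 0 with DESeq2 size factors and without the mitochondrial genome. The 126 genes at least 2-fold higher in both forms became 200 with a pseudocount of 0.1, 48 with 5 and 239 with TMM log2 CPM. The 45 lower became 79 with 0.1, 12 with 5 and 22 with a mean of at least 5 FPKM, and the 47 opposite became 90, 18 and 29, or 77 with TMM log2 CPM. No called gene changed sign in any alternative. SIGLEC6, at −0.27, turned to 1.81 without PSPC1-Y523F/PTK6 and form, and was −2.9 without PSPC1/PTK6 and form. The form term pairs the libraries by PSPC1 form, and the fit without it is the unpaired one. The cause of the other shifts was not tested. At 1 library per condition the spread between cultures was not measured.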
